A study of Homo sapiens with 7 samples.

Results

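The genes described here encode proteins that keep transposable elements silent or block their copying. There were 30 of them, chosen by name for that role, and all 30 were found among the 19974 protein-coding genes of a RefSeq gene table (GRCh38.p14) on chromosomes 1 to 22 and X. Cells of the SH-SY5Y line, established from a human neuroblastoma, were infected with a lentivirus carrying a short hairpin RNA under the U6 promoter, either a control hairpin (shNC, 3 libraries) or one against TDP-43 (shTDP43, 3 libraries), the DNA- and RNA-binding protein encoded by TARDBP. Per the labels, infected cells were selected in puromycin for 2 weeks and then kept in it. Both groups carry an integrated vector and come from the same line, which limits the comparison to cells that survived selection. The assay was hMe-Seal, in which 5-hydroxymethylcytosine (5hmC), an oxidised form of methylated cytosine, is tagged with a modified glucose and biotin, pulled down and sequenced. The deposited data are lists of 5hmC peaks, 1 per library. The main value here is the percent of a gene body, the annotated span from start to end, covered by peaks. A low value means few called peaks and not absence of 5hmC, and peak lists hold no expression. The labels do not say that replicates were separate cultures, and p-values therefore reflect only library-to-library spread, possibly technical.

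Silencing of transposable elements is layered. KRAB zinc finger proteins bind the elements and recruit TRIM28 (KAP1), which brings the histone methyltransferase SETDB1, and the methylated histone is then bound by HP1 proteins. The HUSH complex spreads and maintains this mark, including over young LINE-1 copies, together with MORC2. Outside the chromatin, restriction factors such as SAMHD1, MOV10 and APOBEC3 proteins limit reverse transcription, and ADAR edits double-stranded RNA that repeats can form. In neurons 5hmC is known to lie mainly in gene bodies and at enhancers and to be sparse at active CpG-rich promoters.

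Promoters at 5 starts of 4 genes are shown because the promoter values below turn on whether peaks overlapped them. The ADAR and ZC3HAV1 sequences come from starts with peaks at or near them, TASOR is rich in CpG, and CBX3 is a highly covered gene whose start has no peak. Each is the 250 bases before an annotated start, from RefSeq (GRCh38.p14), written 5′ to 3′ on the strand of the gene, with CpG dinucleotides in capitals.
ADAR at 154627997 (chr1:154627998-154628247, minus strand): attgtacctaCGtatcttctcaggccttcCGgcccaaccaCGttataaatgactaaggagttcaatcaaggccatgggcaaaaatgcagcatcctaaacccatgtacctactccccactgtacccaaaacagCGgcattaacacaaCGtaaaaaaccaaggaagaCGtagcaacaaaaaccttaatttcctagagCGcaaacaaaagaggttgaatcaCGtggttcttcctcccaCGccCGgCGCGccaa
ADAR at 154608797 (chr1:154608798-154609047, minus strand): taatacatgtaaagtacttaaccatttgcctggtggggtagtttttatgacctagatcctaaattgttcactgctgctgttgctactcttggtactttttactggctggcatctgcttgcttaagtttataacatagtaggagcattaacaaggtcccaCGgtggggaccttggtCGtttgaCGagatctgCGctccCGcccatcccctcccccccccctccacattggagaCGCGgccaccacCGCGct
ZC3HAV1 at 139109720 (chr7:139109721-139109970, minus strand): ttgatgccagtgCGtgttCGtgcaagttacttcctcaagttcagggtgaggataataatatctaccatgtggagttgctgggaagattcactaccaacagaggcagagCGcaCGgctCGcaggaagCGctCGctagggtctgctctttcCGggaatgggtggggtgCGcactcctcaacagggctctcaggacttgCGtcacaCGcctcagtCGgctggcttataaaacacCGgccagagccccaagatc
TASOR at 56683265 (chr3:56683266-56683515, minus strand): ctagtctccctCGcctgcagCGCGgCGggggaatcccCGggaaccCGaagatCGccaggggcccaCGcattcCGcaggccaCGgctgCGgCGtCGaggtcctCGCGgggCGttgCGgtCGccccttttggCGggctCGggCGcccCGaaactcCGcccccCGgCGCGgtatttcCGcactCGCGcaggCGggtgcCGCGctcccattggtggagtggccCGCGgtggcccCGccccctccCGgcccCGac
CBX3 at 26201443 (chr7:26201193-26201442, plus strand): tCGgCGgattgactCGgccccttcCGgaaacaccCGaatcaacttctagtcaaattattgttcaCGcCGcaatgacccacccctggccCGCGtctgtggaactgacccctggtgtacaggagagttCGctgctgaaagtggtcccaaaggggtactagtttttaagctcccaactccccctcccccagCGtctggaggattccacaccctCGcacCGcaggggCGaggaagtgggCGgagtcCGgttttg
Peaks overlapped the window of the first ADAR start in all 6 libraries, that of ZC3HAV1 in 5 and that of TASOR in 4. Another annotated ADAR start, 154627971, close to the first and not shown, also had a peak in its window in all 6 libraries. No peak overlapped the window of the downstream ADAR start, 154608797, or that of CBX3. The 250 bases shown hold 12 (first ADAR start), 9 (downstream ADAR start), 13 (ZC3HAV1), 37 (TASOR) and 16 (CBX3) CpG dinucleotides. Over the same stretch of the 22132 windows of all coding genes the median was 16, and 96.8% held at least 1. The median was 7 in the 971 windows with a peak in all 6 libraries and 17 in the 19438 without a peak in any, with upper quartiles of 15 and 26. CpG is a palindrome, so both strands give the same count.

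The libraries had 117949 to 157157 peaks, with the most in control 2. Control libraries had 134024 ± 20535 and knockdown libraries 130946 ± 11402 peaks (SD, n = 3 each, two-sided exact permutation p = 0.9), and peaks covered 4.45% ± 0.769 and 4.29% ± 0.495 of all coding gene bodies (exact permutation p = 0.8). The peak lists carry no read totals, and the depth behind a value is therefore unknown. TARDBP had no peak in any library, which checks nothing about the knockdown. Among noradrenergic markers of the line, TH, DBH, TFAP2B, GATA3, GATA2 and ISL1 carried peaks. The mean percent covered was highest for TH, which encodes the rate-limiting enzyme of catecholamine synthesis (45.0% ± 3.12 in the shNC and 50.3% ± 6.82 in the shTDP43 group, SD over 3 libraries), and lowest for ISL1 (7.06% ± 7.56 and 12.7% ± 0.639). PHOX2A and HAND2 had no peak in any library. The 6 of these genes that could be tested as below had positive log2 differences, and 0 passed (limma), with an unadjusted p under 0.05 for TFAP2B alone. The median percent covered was 3.85% in the shNC and 2.75% in the shTDP43 group over 8 markers of the mesenchymal neuroblastoma state, and 7.47% and 6.41% over 6 markers of embryonic kidney, the origin of the 293T packaging cells. Of the mesenchymal and kidney markers, 8 could be tested, and 0 passed (limma), with an unadjusted p under 0.05 for 1.

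Most of the silencing genes carried 5hmC peaks. Peaks were present in 26 of the 30 genes in at least 1 library and in 20 in all 6. The share of all coding genes with a peak in all 6 is not given here. The median gene had 3.06% of its body covered in the shNC and 2.25% in the shTDP43 group, against 2.01% and 1.72% over the 16814 coding genes of at least 5 kb. Among genes tested below, the medians were 4.14% and 3.51% for the silencing genes and 4.59% and 4.14% for all. Summed over the 30 genes, peaks covered 3.36%, 4.82% and 3.62% of their bodies in shNC libraries 1 to 3, against 4.18%, 3.06% and 3.47% in shTDP43 libraries 1 to 3. The groups overlapped, and control 2 and knockdown 1, the longest lists of their groups, were the highest. The genes TRIM28, SUV39H1, EHMT2 and DAXX had no peak in any library. Of the 16814 long coding genes, 27.6% had none, as did 3 of the 28 silencing genes of that length. Those 28 were longer, with a median of 47561 bp against 32633.5 bp, and length was not accounted for.

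**Figure D1:**
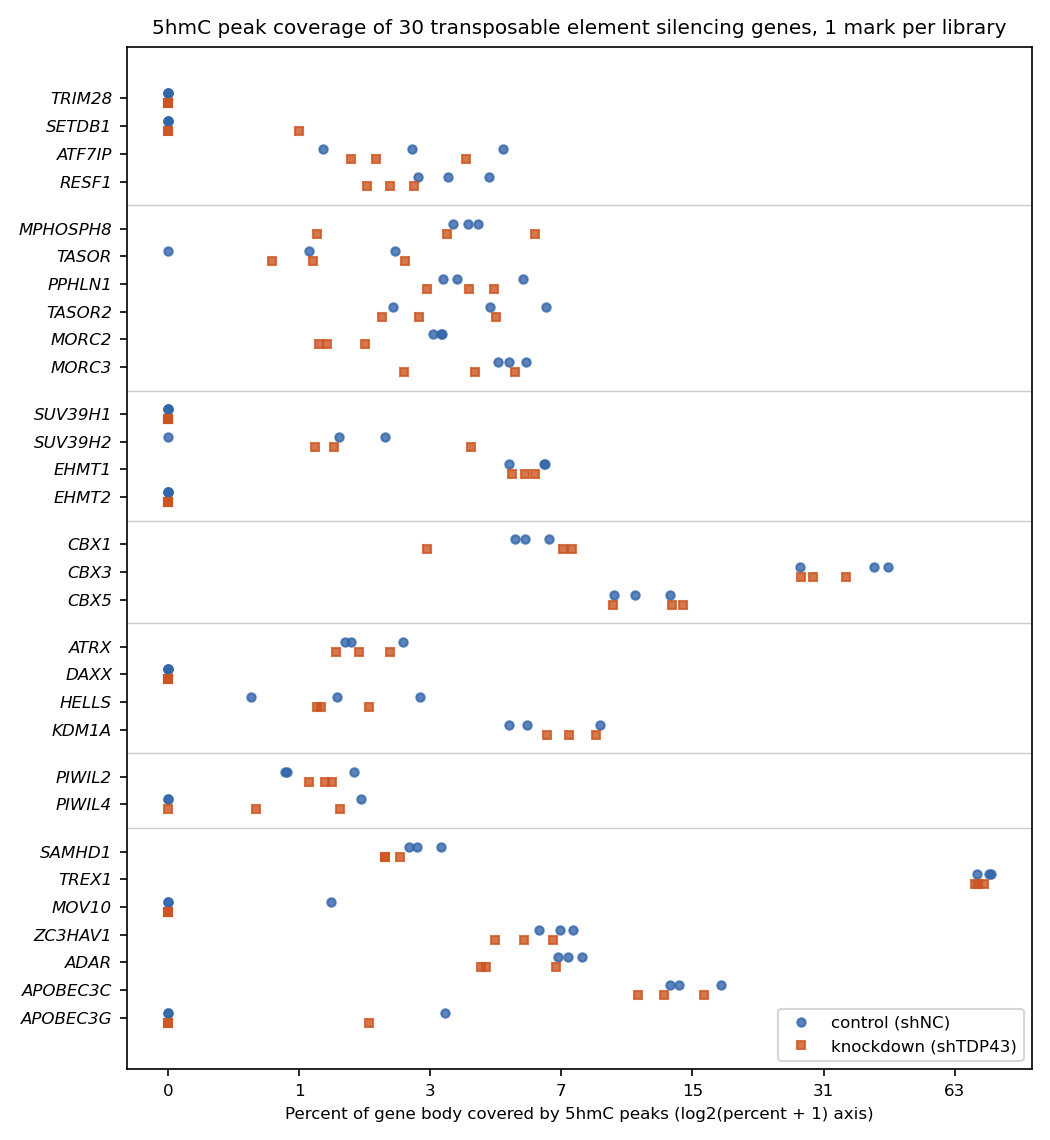
Percent of each gene body covered by 5hmC peaks (horizontal axis, on a log2(percent + 1) scale) for the 30 genes grouped by role, with 1 circle per control library and 1 square per knockdown library. TREX1 lies near 70% or above in every library and TRIM28, SUV39H1, EHMT2 and DAXX at 0 in all, and the groups lie apart, with the knockdown lower, at MORC2, ADAR, RESF1 and SAMHD1.

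No silencing gene passed the test for a difference in coverage between control and TDP-43 knockdown cells. Of the 21 genes that could be tested (at least 5 kb long and covered over at least 1% on average), 0 passed limma's test at an adjusted p of 0.05, where 0.685% of all 10077 tested genes did (18 higher, or 0.179%, and 51 lower, or 0.506%). Their adjusted p ran from 0.244 for MORC2 to 0.991 for ATF7IP. An unadjusted p under 0.05 was reached by 2 of 21, MORC2 and RESF1, against 13.5% of all tested genes. Their log2 differences, knockdown minus control, were positive in 10 and negative in 11, with a median of -0.01 against 0.02 over all tested genes. These differences, of log2(percent + 1), are compressed where coverage is low and are relative to a median shift of -0.10 between the groups that was removed from all genes. Groups did not overlap, with the knockdown lower, in 4 of the 21 (19.0%, against 18.3% of all tested genes). They did not overlap with the knockdown higher in 0 of 21 (against 3.34%). On centred values, a scale chosen after seeing the data, the counts were 4 and 0 of 21, against 10.5% and 10.6% of all tested genes.

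**Figure D2:**
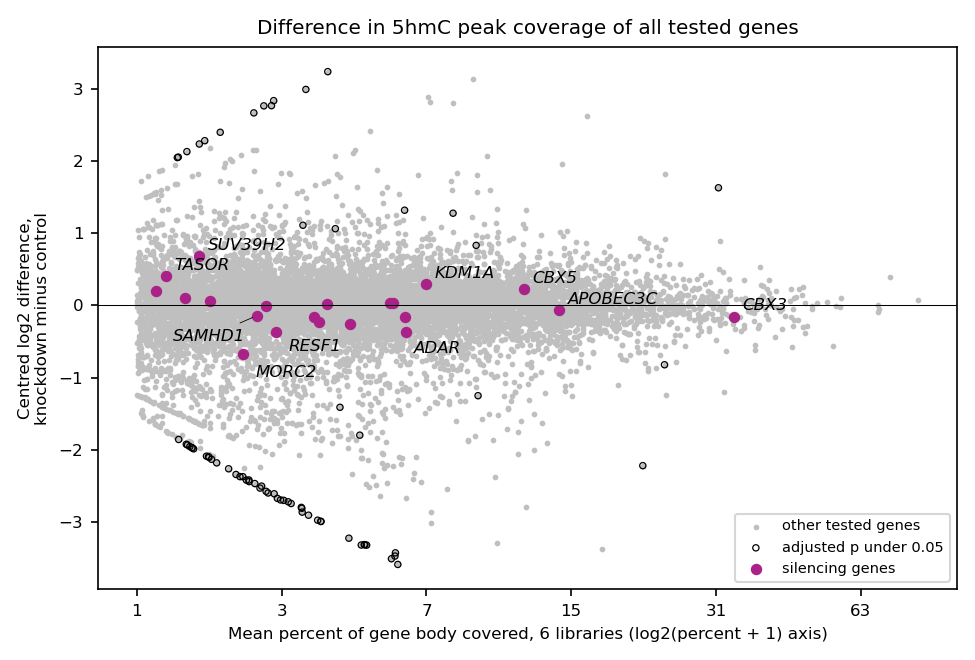
Centred log2 difference in coverage, knockdown minus control (vertical axis), against the mean percent covered over 6 libraries (horizontal axis, log2(percent + 1) scale) for all 10077 tested genes, with 21 silencing genes as filled dots and genes at an adjusted p under 0.05 as open circles. No filled dot carries an open circle, and MORC2 is the lowest of them at -0.67.

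In the TRIM28 and SETDB1 arm, the corepressor and the enzyme had few peaks in their bodies, and their partners ATF7IP and RESF1 had more. TRIM28, the corepressor that KRAB zinc finger proteins recruit, spans 58544064 to 58550715 on chromosome 19 (hg38, as all positions here) and had no peak. SETDB1, the methyltransferase it brings, spans 150926263 to 150964737 on chromosome 1 and had a single peak, in knockdown 1, covering 0.998% of the gene. Around its start, all 6 libraries had peaks, which covered 374 to 658 bases of the 2 kb centred on the start at 150926263. The SETDB1 partner ATF7IP, which protects SETDB1 from degradation, was covered over 1.28% to 4.87% in the shNC and 1.63% to 3.83% in the shTDP43 group. It held 14 merged regions, which are spans where peaks of any library overlap or adjoin, and 3 of them had a peak in all 6 libraries.

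RESF1, which binds SETDB1 and helps to silence endogenous retroviruses, was covered over 3.40%, 4.46% and 2.75% in shNC libraries 1 to 3, against 2.68%, 1.87% and 2.23% in shTDP43 libraries 1 to 3. Every control was above every knockdown library, by a small margin between control 3 and knockdown 1. The means were 3.54% ± 0.861 and 2.26% ± 0.404 (SD, n = 3 each). Their log2 difference was -0.37, with a standard error of 0.15 and a limma adjusted p of 0.368. The unadjusted p was 0.0482, and it was above 0.05 with any 1 library left out. RESF1 had 4 merged regions, and the 1 found in all libraries, 833 bp long, lay about 1.65 kb after its start.

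The HUSH complex consists of MPHOSPH8, which reads methylated H3 lysine, TASOR, its scaffold, and PPHLN1. MPHOSPH8 (chromosome 13, 19633659 to 19673441) was covered over 4.15%, 3.88% and 3.52% in shNC libraries 1 to 3, against 5.95%, 1.20% and 3.37% in shTDP43 libraries 1 to 3. The knockdown libraries lay on either side of the controls, and the log2 difference was -0.15 (SE 0.35, limma adjusted p = 0.871). Within 1 kb of the MPHOSPH8 start, peaks covered 0, 490 and 0 bases in shNC libraries 1 to 3, against 469, 294 and 421 in shTDP43 libraries 1 to 3. TASOR had 0% to 2.32% in control and 0.735% to 2.51% in knockdown libraries, with no region shared by all 6, and PPHLN1 had 3.29% to 5.53% and 2.94% to 4.60%, with 3 of 17 regions shared by all. Peaks overlapped the window of the TASOR start shown above in shNC libraries 1 and 3 and in shTDP43 libraries 1 and 3, and that of a further start, 56664046, in shNC library 2 alone, so 3 control and 2 knockdown libraries had a TASOR promoter peak. MPHOSPH8 overlaps PSPC1 and TASOR overlaps CCDC66, both protein-coding. A peak in a shared stretch would count for each gene, but no merged region of MPHOSPH8 or TASOR lay in the overlapping gene.

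TASOR2, a paralogue of TASOR, was covered over 2.29%, 6.39% and 4.49% in shNC libraries 1 to 3, against 4.66%, 2.77% and 2.10% in shTDP43 libraries 1 to 3. The groups overlapped, with control 1 near the lowest knockdown, and the log2 difference was -0.24 (SE 0.31, limma adjusted p = 0.75). It was -0.51 without control 1 and -0.032 without knockdown 3. MORC3, an ATPase that represses endogenous retroviruses, had 5.08%, 5.65% and 4.72% in control and 4.08%, 5.28% and 2.49% in knockdown libraries. Knockdown 3 stood lowest and knockdown 2 lay among the controls (log2 difference -0.25, SE 0.25, limma adjusted p = 0.680). The difference was -0.0089 without knockdown 3 and -0.51 without knockdown 2.

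MORC2, the ATPase that acts with HUSH to compact chromatin, had the smallest p of the 21 tested genes. It spans 30925130 to 30968774 on chromosome 22 and was covered over 3.26%, 3.06% and 3.24% in shNC libraries 1 to 3, against 1.32%, 1.23% and 1.84% in shTDP43 libraries 1 to 3. The controls lay close together and all above the knockdown libraries. The means were 3.19% ± 0.112 and 1.46% ± 0.328 (SD, n = 3 each). Their log2 difference was -0.67, with a standard error of 0.20, a limma p of 0.0125 and an adjusted p of 0.244. The gene had only 2 merged regions. One, of 1071 bp (30947242 to 30948312), had a peak in all 6 libraries, with the authors' fold enrichment between 5.02 and 8.32. Its peak was shorter in the knockdown. It began 20.46 to 20.56 kb after the start in every library. It ended at 21.53, 21.47 and 21.47 kb in shNC libraries 1 to 3, against 21.05, 21.10 and 21.29 kb in shTDP43 libraries 1 to 3. The other, of 453 bp (30945209 to 30945661), had a peak in the 3 controls alone, at folds of 4.51, 4.18 and 4.75. These folds stood at the 31.2nd to 40.9th percentile of their lists, below the median in each.

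Across all 30 genes, 183 merged regions were found, and 53 of them (29.0%, against 36.5% of 118179 regions in all coding genes) had a peak in all 6 libraries. A region was called control-only if 3 of 3 controls and 0 of 3 knockdown libraries had a peak. There were 4 such regions (2.19%, against 1.87% of all regions in coding genes), in MORC2, ADAR, MPHOSPH8 and TASOR2. There was no region with the reverse pattern (0 of 183, against 1.03%). The MPHOSPH8 region (19665399 to 19666037, 639 bp) lay outside PSPC1, about 32.1 kb after the start, with −log10 q-values of 16.4, 8.14 and 8.39 in controls 1 to 3. Its folds there were 4.53, 2.67 and 3.26, at the 35.3rd, 4.95th and 11.9th percentile of their lists. The TASOR2 region (5687452 to 5687930 on chromosome 10, 479 bp) lay about 2.85 kb after the first start, with −log10 q-values of 4.83, 6.20 and 8.29. Its folds were 4.02, 3.78 and 4.93, at the 26.2nd, 22.9th and 42.8th percentile. With equal numbers of peaks per list, the MORC2 region was still found in 3 controls and 0 knockdown libraries, and the other 3 regions in 2 controls and 0. At a −log10 q of at least 5, the region was found in 3 controls for MORC2, ADAR and MPHOSPH8 and in 2 for TASOR2, and in 0 knockdown libraries. Without control 1, when fewer controls had to have a peak, 8 control-only regions were counted. The share over all coding genes in that setting is not given here. The single-library regions numbered 54 of 183 (29.5%, against 21.3% of all regions in coding genes). Of these 54, 17 were found in control 2 alone, against 7341 of the 25179 single-library regions in all coding genes.

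**Figure D3:**
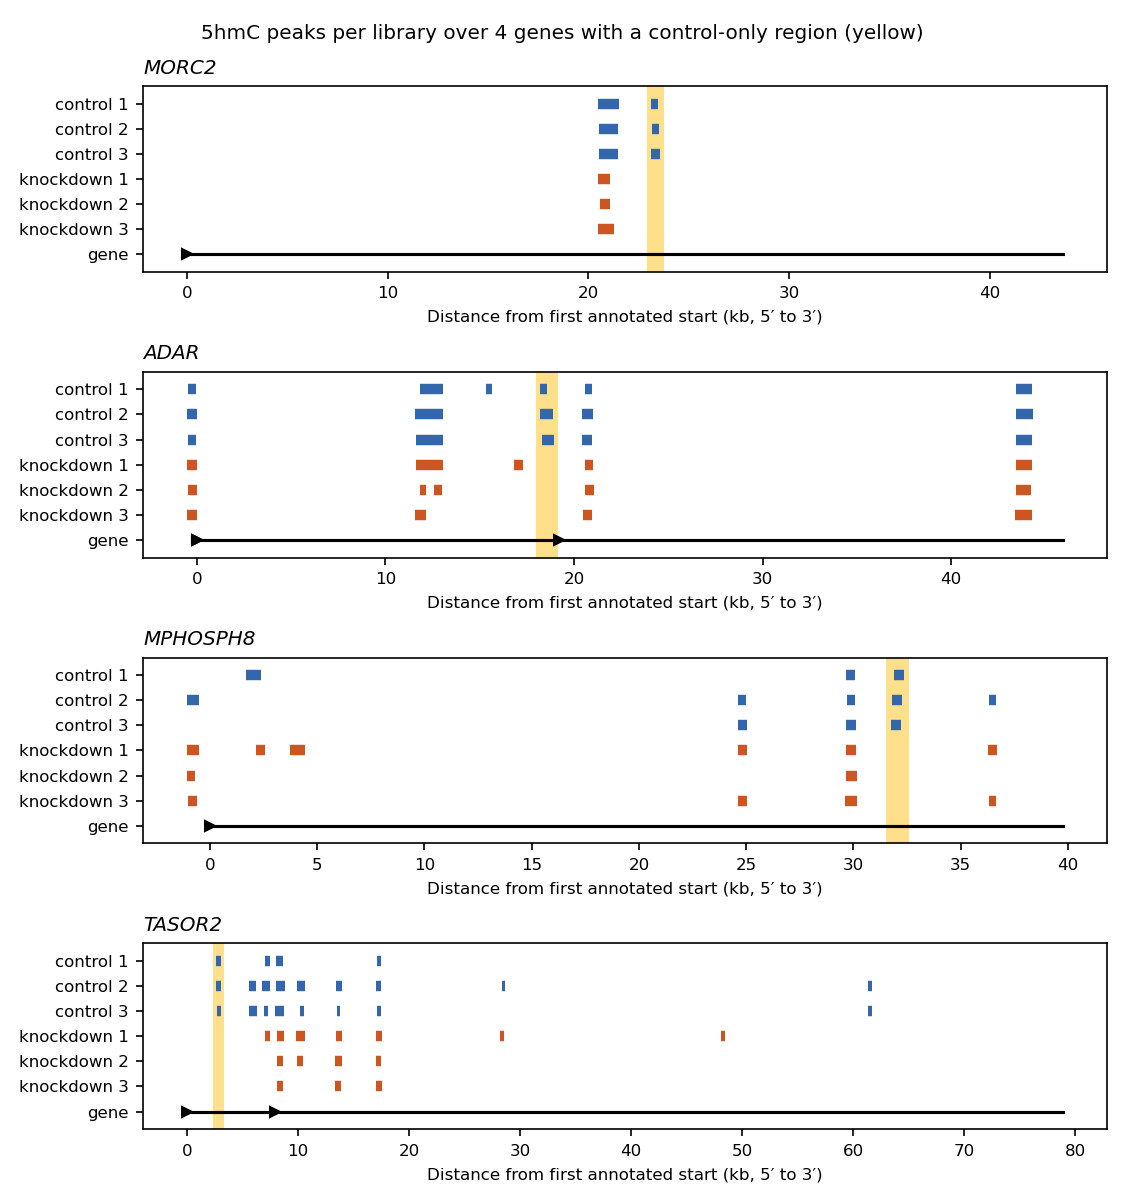
Peaks of each library (bars, 3 control and 3 knockdown rows) over MORC2, ADAR, MPHOSPH8 and TASOR2, by distance in kb from the first annotated start, with the gene as a black line, its annotated starts as arrowheads and the control-only region in yellow, drawn slightly wider than it is. In MORC2 the yellow region is the second of only 2, and in ADAR it lies just before the downstream start.

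The histone H3 lysine methyltransferases split into covered and uncovered genes. SUV39H1, on chromosome X, and EHMT2 (G9a), on chromosome 6, had no peak in any library, while SUV39H2 had a single region, seen in 5 of 6 libraries, and a coverage of 0% to 2.15% in control and 1.17% to 3.97% in knockdown libraries. EHMT1 (GLP), which pairs with EHMT2, spans 137619005 to 137836127 on chromosome 9 and had the most regions of all 30 genes, 23, of which 10 had a peak in every library. It was covered over 6.32%, 6.31% and 5.06% in shNC libraries 1 to 3, against 5.61%, 5.16% and 5.96% in shTDP43 libraries 1 to 3. The groups overlapped throughout (log2 difference 0.04, SE 0.13, limma adjusted p = 0.926).

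The HP1 genes encode readers of this histone mark, and CBX3 and CBX5 had the highest coverage of the chromatin factors. CBX3 (HP1 gamma) spans 26201443 to 26213607 on chromosome 7 and was covered over 27.3%, 43.9% and 40.6% in shNC libraries 1 to 3, against 35.1%, 27.4% and 29.2% in shTDP43 libraries 1 to 3. Control 1 was the lowest of all, the other controls the highest, and the log2 difference was -0.16 (SE 0.16, limma adjusted p = 0.679). Its mean stood at the 99.5th percentile of coding genes of at least 5 kb. The peaks of CBX3 began well inside the gene. Its 3 regions found in all libraries lay about 3.56, 4.70 and 6.51 kb after the start, and the 2 kb centred on that start had no peak in any library. The longest, of 2073 bp (26206922 to 26208994), had fold enrichments of 9.31 to 14.2.

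CBX5 (HP1 alpha) was covered over 9.59%, 13.2% and 10.8% in shNC libraries 1 to 3, against 14.2%, 9.53% and 13.4% in shTDP43 libraries 1 to 3. The groups overlapped (log2 difference 0.23, SE 0.13, limma adjusted p = 0.463). A CBX5 region of 450 bp (54277904 to 54278353 on chromosome 12) about 1.99 kb after the first start had a peak in all 3 knockdown libraries and in control 2. The opposite pattern, a peak in all 3 controls and in 1 knockdown library, was found for regions of PPHLN1, TASOR2, MORC3 and KDM1A. Several CBX5 regions also lie in the lncRNA gene SCAT2, and a peak there counts for both genes. CBX1 (HP1 beta) had 6.49%, 5.25% and 5.60% in control and 7.47%, 2.94% and 7.07% in knockdown libraries. Knockdown 2 stood lowest and the other knockdowns highest (log2 difference 0.03, SE 0.28, limma adjusted p = 0.968).

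Of the remodelling and histone turnover genes, KDM1A, the lysine demethylase LSD1, was the best covered. It spans 23019468 to 23083689 on chromosome 1 and had 5.07%, 8.79% and 5.66% in shNC libraries 1 to 3, against 7.33%, 6.41% and 8.63% in shTDP43 libraries 1 to 3. Control 2 was the highest of all and the other controls the lowest (log2 difference 0.30, SE 0.16, limma adjusted p = 0.443). Its region at 23039263 to 23040188 had fold enrichments of 11.5 to 20.0, at the 91.1st to 99.2nd percentile of the lists. ATRX, the remodeller that deposits the histone variant H3.3 with DAXX at repeats, had 1.55% to 2.46% in control and 1.43% to 2.24% in knockdown libraries over its 281337 bp. HELLS, a remodeller needed for DNA methylation of repeats, had 0.549% to 2.79% and 1.20% to 1.89%. DAXX, 4402 bp long, had no peak.

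The piRNA pathway genes PIWIL2 and PIWIL4, which silence elements in the germ line, were sparsely covered. PIWIL2 had 0.855% to 1.67% in control and 1.11% to 1.38% in knockdown libraries, and 1 of its 2 regions was found in all 6. PIWIL4 had a peak in control 2, knockdown 1 and knockdown 2 only and was not tested.

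Among restriction and editing factors, ADAR, which converts adenosine to inosine in double-stranded RNA, is known to be transcribed from separate constitutive and interferon-inducible promoters. It spans 154582057 to 154627997 on chromosome 1 and was covered over 6.87%, 7.94% and 7.31% in shNC libraries 1 to 3, against 6.79%, 4.38% and 4.22% in shTDP43 libraries 1 to 3. Every control was above every knockdown library, though knockdown 1 lay next to control 1. The means were 7.37% ± 0.540 and 5.13% ± 1.44 (SD, n = 3 each). Their log2 difference was -0.37, with a standard error of 0.16 and a limma adjusted p of 0.376. Its starts differed. At the first start, whose sequence is given above, all 6 libraries had a peak, at folds of 5.78 to 11.7. At the downstream start, 154608797, a control-only region (154609069 to 154609799, 731 bp) began 272 bases upstream and ended 1002 bases upstream. Its folds were 4.20, 2.56 and 2.86 in controls 1 to 3, low in their lists (28.9th, 3.87th and 5.95th percentile). RefSeq also places an lncRNA gene, LOC124904427, at the first start.

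SAMHD1, which depletes the nucleotides needed for reverse transcription, was covered over 2.58%, 3.25% and 2.72% in shNC libraries 1 to 3, against 2.15%, 2.16% and 2.42% in shTDP43 libraries 1 to 3. The groups did not overlap, but the log2 difference was small (-0.14, SE 0.16, limma adjusted p = 0.703). The antiviral zinc finger gene ZC3HAV1 had 6.11%, 7.51% and 6.93% in control and 5.55%, 4.64% and 6.66% in knockdown libraries. Knockdown 3 lay among the controls (log2 difference -0.15, SE 0.14, limma adjusted p = 0.649). Its promoter peak, in the window shown above, covered 103, 65 and 74 bases in shNC libraries 1 to 3, against 7, 0 and 89 in shTDP43 libraries 1 to 3.

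TREX1, the exonuclease that clears cytosolic DNA, had the highest coverage of the 30 genes. It is only 1816 bp long (48465830 to 48467645 on chromosome 3) and was covered over 76.4%, 75.7% and 71.0% in shNC libraries 1 to 3, against 73.5%, 70.2% and 71.4% in shTDP43 libraries 1 to 3. The groups overlapped, and the gene was below the length minimum of the test. Its peaks merged into a single region of 1394 bp with folds of 2.96 to 5.17, which also lies in ATRIP, so that it cannot be assigned to TREX1 alone.

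The cytidine deaminase genes APOBEC3C and APOBEC3G lie in a cluster on chromosome 22 and differed from each other. APOBEC3C (39014257 to 39020352) had 17.6%, 13.9% and 13.2% in shNC libraries 1 to 3, against 16.0%, 12.8% and 11.0% in shTDP43 libraries 1 to 3. The highest value was in control 1, the lowest in knockdown 3, and the groups overlapped (log2 difference -0.06, SE 0.19, limma adjusted p = 0.906). APOBEC3G had a peak only in control 1 (3.32%) and knockdown 3 (1.90%) and was not tested. MOV10, an RNA helicase that binds LINE-1 RNA, had a single peak in its body, in control 1, but peaks in all 6 libraries within 1 kb of its first start, where they covered 477 to 720 bases.

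Around their starts, the silencing genes were less covered in the first 1 kb of the gene than in the 1 kb on either side of it. Start windows were given for 23 of the 30 genes, with no entry for ATRX, APOBEC3C, APOBEC3G, TRIM28, DAXX, PIWIL2 and PIWIL4. Coverage of the last 1 kb before the first start was 13.6% ± 1.13 in the shNC and 14.2% ± 2.23 in the shTDP43 group (SD over 3 libraries). It was 4.67% ± 0.770 and 3.91% ± 0.782 in the first 1 kb after it, and 13.6% ± 1.41 and 14.5% ± 2.65 in the next 1 kb. Over 15812 coding genes the same 3 bins had 8.26% ± 0.585, 4.58% ± 0.365 and 8.43% ± 0.950 in control and 6.26% ± 0.638, 3.49% ± 0.309 and 7.01% ± 0.756 in knockdown libraries. In both sets the first 1 kb of the gene was the least covered of the 3. The difference between the sets was not tested.

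**Figure D4:**
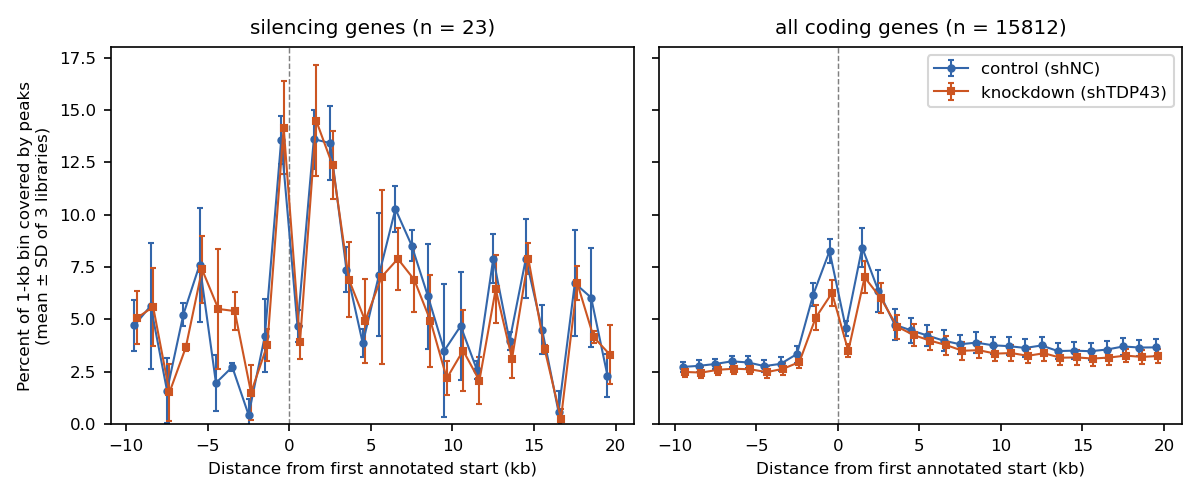
Mean percent of each 1-kb bin covered by peaks (vertical axis, mean ± SD of 3 libraries per group) by distance from the first annotated start (horizontal axis, kb), for 23 silencing genes (left) and 15812 coding genes (right), with knockdown points drawn slightly to the right. Both sets are lower in the first 1 kb after the start than in the bins on either side, at 4.67% and 4.58% in control libraries. Bins farther away can be lower still, such as 0.441% for the silencing genes (2 to 3 kb before the start) and 2.73% for all coding genes (9 to 10 kb before it).

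A promoter peak, overlapping the window from 250 bases before to 50 after any annotated start, was found in all 6 libraries for 1 of 23 silencing genes, ADAR (against 5.33% of coding genes), and in any library for 6 of 23 (against 13.9%). The numbers of silencing genes with a promoter peak were 3, 4 and 4 in shNC libraries 1 to 3, against 5, 1 and 4 in shTDP43 libraries 1 to 3. Over all coding genes, 10.3% ± 0.662 had one in the shNC and 8.20% ± 0.570 in the shTDP43 group (SD over 3 libraries, two-sided exact permutation p = 0.1, and no smaller p can be had from 3 against 3). Within 1 kb of a start, 8 of 23 silencing genes had peaks in all 6 libraries (SETDB1, RESF1, TASOR2, TREX1, MOV10, ZC3HAV1, ADAR and, at different starts in different libraries, ATF7IP), against 16.6% of coding genes. The silencing genes have more start windows each, 1.74 against 1.40, and the difference was not tested.

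No gene of the wider pathway passed the test either. A list of 60 other genes of element silencing, small RNA and nucleic acid sensing had 34 tested genes, of which 0 passed limma's test and 7 had an unadjusted p under 0.05 (against 13.5% of all tested genes), with 21 positive and 13 negative log2 differences and a median of 0.11. The DNA sensor CGAS was covered over 2.10% ± 1.36 in control libraries and had no peak in the knockdown libraries (SD, n = 3, limma adjusted p = 0.242). KMT5C, which methylates histone H4 downstream of HP1, had 22.95% ± 2.97 and 16.3% ± 2.15 (log2 difference -0.37, SE 0.11, limma adjusted p = 0.238), and MAVS, the adaptor of RNA sensors, had 0.382% ± 0.662 and 2.13% ± 1.16 (limma adjusted p = 0.301). These 3 were chosen after their values were seen.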

How the data were processed

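Peaks of hMe-Seal libraries (3 shNC, 3 shTDP43) were analysed; the input sample was not used here. Bowtie2 2.4.4, SAMtools and MACS2 2.2.6 with hg38 are named in the submitters' processing notes. Each deposited list gives, per peak, a score, a fold enrichment and −log10 p- and q-values, as the authors' caller wrote them. Lists are per library. Whether the input served as the control of peak calling is not given in the sources used here.

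Peaks were laid over RefSeq gene spans (GRCh38.p14). Percent covered was taken as log2(percent + 1), the median deviation of each library was removed, and the groups were compared with limma 3.58.1 (R 4.3.3, trended variance, no replicate block), adjusted by Benjamini-Hochberg over 10077 coding genes of at least 5 kb with a mean coverage of at least 1%, at a threshold of 0.05. The fit was tested on simulated data. Library totals were compared by exact permutation (scipy 1.17.1). Regions overlapped a gene by at least 1 bp. Genes were named by a rule: values in every library for tested genes whose groups did not overlap, the 10 of highest mean coverage, and those with a region in all libraries of 1 group and none of the other; the rest by range. Genes and lists were chosen with earlier results of these data known. Some marker genes are not reported here. Alternatives covered pseudocount, filters, centring, peak threshold and number, measure, window, merging, replicates and block.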

Additional observations from a re-analysis of the deposited data

How the results depend on the processing

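In all 17 alternative fits 0 silencing genes passed the test, with a smallest adjusted p between 0.1405 and 0.5816 (limma). Calls over all genes (18 higher and 51 lower) moved more. There were 30 higher with equal numbers of peaks, 33 higher and 109 lower for summits per 10 kb, 10 and 17 with 5 kb added at either end, 13 and 95 without centring, 97 lower at a −log10 q of at least 5 and 77 lower with a length minimum of 1 kb. Leaving out 1 library gave 4 to 37 higher and 9 to 71 lower, the fewest of both without control 3. With replicate number as a block there were 0 higher and 0 lower calls and 1052 genes with an unadjusted p under 0.05. Deviations from the group means had correlations of -0.125, -0.0817 and -0.0143 between same-numbered libraries and of -0.0768 to 0.161 between the others. With group means of only 3 libraries, these values cannot decide whether the numbers pair the libraries.

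Silencing genes whose groups did not overlap (4 lower, 0 higher) numbered 2 and 1 for summits per 10 kb, and 4 to 6 and 0 to 2 with 1 library left out (2 higher without control 2 and without knockdown 2). Control-only regions (4) numbered 2 with equal numbers of peaks and 5 to 8 with 1 library left out. Of the original 4, only the MORC2 region was still control-only with equal numbers of peaks. Knockdown-only regions (0) numbered 0 to 3, the most without knockdown 1. With 1 library left out, groups that do not overlap and group-only regions arise more easily. Shares over all genes in these settings are not given here. Genes with a promoter peak in every library (1) numbered 8 within 1 kb of a start and 1 to 3 with 1 library left out, the most without knockdown 2.

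MORC2 kept its direction in 17 of 17 alternatives (log2 difference -0.90 to -0.33, adjusted p 0.1405 to 0.585), as did ADAR (-0.51 to -0.15, adjusted p 0.275 to 0.818) and RESF1 (-0.64 to -0.20, adjusted p 0.258 to 0.609). KDM1A (0.19 to 0.48, limma adjusted p 0.218 to 0.754) and CBX5 (0.13 to 0.33, 0.366 to 0.831), higher in the knockdown, also kept theirs in 17 of 17. The same held for MORC3 (-0.51 to -0.0089) and ZC3HAV1 (-0.28 to -0.015), lower in the knockdown. An unadjusted limma p under 0.05 was kept in 16 of 17 alternatives for MORC2 (not without control 3) and in 4 of 17 for RESF1. For RESF1 it was lost at a −log10 q of at least 5 (0.282), with 5 kb flanks (0.114), with the block (0.125) and with any 1 library left out (0.054 to 0.118). It was also lost without centring (0.064), with quantile normalization (0.060), without the filter on low values (0.059) and with a pseudocount of 4 (0.058). With 1 library left out, MORC3 ran from -0.51 (without knockdown 2) to -0.0089 (without knockdown 3) and TASOR2 from -0.51 (without control 1) to -0.032 (without knockdown 3). The sign reversed for MPHOSPH8 with 5 kb flanks (0.53) and without knockdown 2 (0.22; lowest with 1 library left out -0.49, without knockdown 1), for TASOR2 at a −log10 q of at least 5 (0.13), and for SAMHD1 with equal numbers of peaks (0.028). With flanks, MPHOSPH8 had an unadjusted limma p of 0.0499 and an adjusted p of 0.330. EHMT1 reversed without centring (-0.064), without control 2 (-0.015) and without control 3 (-0.0048). CBX1 reversed without centring (-0.066), for summits (-0.23), and without control 2 (-0.12), knockdown 1 (-0.11) or knockdown 3 (-0.12), and was highest with 1 library left out without knockdown 2 (0.33). CBX3 reversed at a −log10 q of at least 5 (0.12), for summits (0.073) and with flanks (0.028). APOBEC3C reversed for summits (1.45), with flanks (0.047), without control 1 (0.10) and without knockdown 3 (0.07). The cause was not tested. Read depth is unknown, so a missing peak may lie just under the caller's threshold.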
